A study of Homo sapiens with 3 samples.

Results

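The RNA-binding protein TIA1 was mapped along the transcript of SRSF1 and the region downstream of it, on the minus strand of chromosome 17 from 56076500 to 56084707 (hg19, positions counted from 1). Every interval on that strand that overlapped this window of 8208 nt by at least 1 nt was taken. The members were 9 of the 2253 reproducible peaks, 27 of the 103134 clusters of replicate 1 and 23 of the 66222 clusters of replicate 2. The window was chosen because reproducible peaks crowd there, so the number of its peaks and their folds over input are given as a description, with no test.

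The data come from eCLIP, in which RNA is crosslinked to bound protein by ultraviolet light (600 mJ here, per the labels), fragments that come down with an antibody are sequenced, and an input taken before that pull-down is sequenced beside them. The groups were TIA1 eCLIP (2 replicates) and input (1 library), both from HEK293T, a cell line derived from human embryonic kidney that expresses the SV40 large T antigen, with no genotype, drug or time that differs between them. The labels call the replicates technical in one place and biological in another, so the spread between them may be technical, and they give the antibody's catalogue number both as anti-TIA1 and, in the treatment protocol, as an Msi1 antibody. The growth protocol names HEK293 cells where the cell line field has HEK293T, and lists of bound intervals hold no expression by which the line could be checked.

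SRSF1 (also called SF2 or ASF) is the prototype of the SR proteins, which bind exons and help the splicing machinery to use them. Cells hold the amount of SR proteins steady partly through their own transcripts: alternative splicing, for SRSF1 within its 3′ untranslated region, gives RNAs that are destroyed by nonsense-mediated decay. TIA1 attaches to U-rich RNA, acts on splice site choice when it binds introns, and on the stability and translation of mRNA when it binds 3′ untranslated regions. In GENCODE v29 (GRCh38), SRSF1 (ENSG00000136450.12) has 9 transcripts, of which 4 are coding, 3 are marked for nonsense-mediated decay, 1 retains an intron and 1 is a processed transcript. That gene model spans 3987 nt. In its coding transcripts the 3′ untranslated region, stop codon included, is 213 to 2390 nt long. No annotation or genome sequence of hg19 was used here, so sites were not assigned to exons, introns or untranslated regions and their sequences are not shown. Where this gene model starts and ends within the window was not determined either. Its length therefore does not place any site inside or outside the SRSF1 transcript. Sites are placed instead by the distance of their 5′ edge, along the RNA, from the upstream edge of the window at 56084707.

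Library totals, recovered from the deposited values, came to 2683407 for replicate 1, 1997817 for replicate 2 and 2851338 for the input, counted in reads. A cluster is a stretch of RNA with piled-up reads in 1 replicate, and it is called enriched here at a log2 fold over input and a −log10 p of at least 3. Over an input number of 1, which may stand for 0 or 1 reads, that took 13 reads in replicate 1 and 10 in replicate 2. Both replicates are set against the same input, so an error in an input number enters both folds.

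Of the clusters in the SRSF1 window, 9 of 27 in replicate 1 and 12 of 23 in replicate 2 were enriched. Enriched clusters made up 3.09% of the whole list of replicate 1 and 5.32% of that of replicate 2, and since the window was picked for its peaks nothing is read from that gap. The clusters of the window held 975 reads in replicate 1 and 741 in replicate 2, leaving out 2 and 4 clusters that lay below the input and whose reads could not be fixed. Per 1000000 library reads (RPM) this is 363 RPM in replicate 1 and 371 RPM in replicate 2. No cluster of either replicate lay on the opposite strand of the window.

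The bound sites were spread unevenly along the RNA. No cluster was listed in either replicate within the 1453 nt next to the upstream edge. Reproducible peaks then fell into 4 groups when joined across gaps of up to 500 nt, a distance chosen after seeing the data. The upstream group held 4 peaks between 1677 and 2207 nt. A stretch of 3668 nt without a reproducible peak followed. The 3 downstream groups held 2 peaks between 5876 and 6111 nt, 2 between 6778 and 6848 nt, and 1 from 7796 to 7871 nt. The map of clusters along the window shows this layout.

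**Figure D1:**
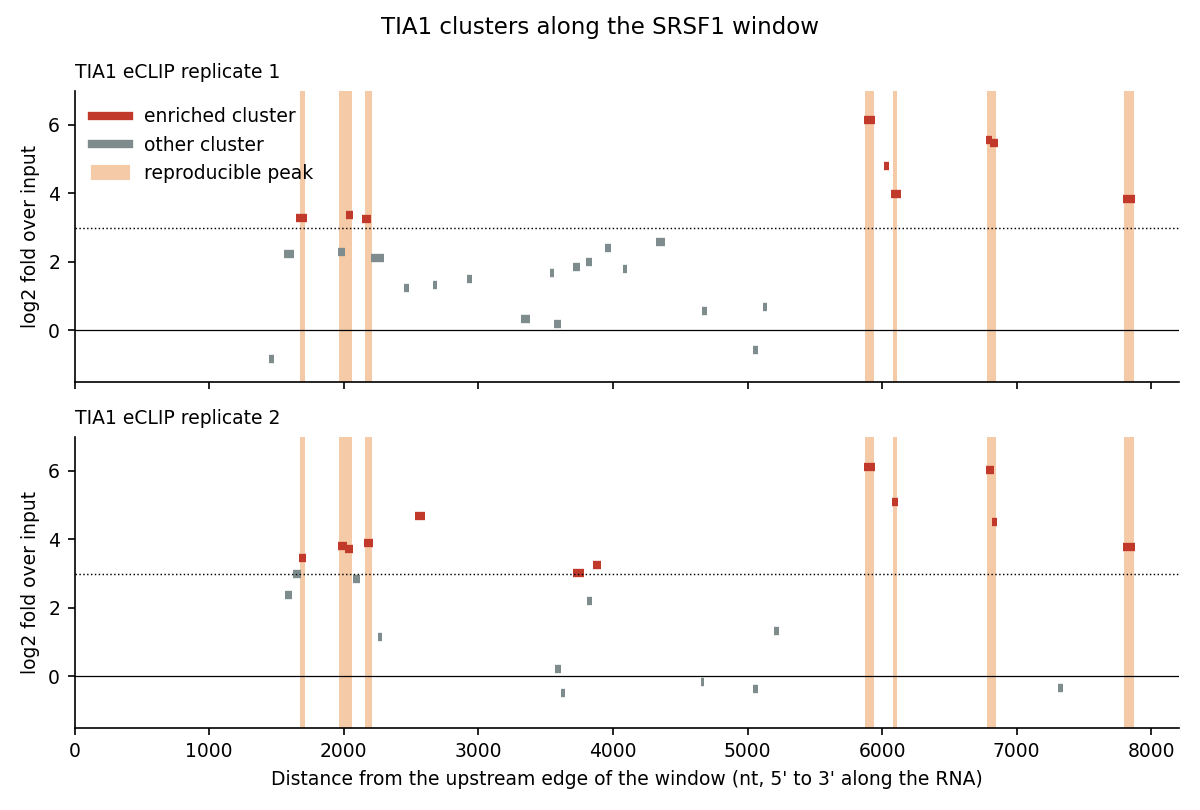
Each bar is a TIA1 eCLIP cluster of replicate 1 (upper panel) or replicate 2 (lower panel), placed by its distance in nt from the upstream edge of the SRSF1 window and by its log2 fold over input. Red bars are enriched, grey bars are not, shading marks the 9 reproducible peaks, and the dotted line is a log2 fold of 3; the highest bars, at 6.13 and 6.12, stand 5876 nt from the edge.

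The strongest site lay far downstream, at 5876 nt. This peak ran from 56078767 to 56078831 (65 nt) and held 329 reads in replicate 1, 245 in replicate 2 and 5 in the input. Both replicates had 123 RPM there, against 1.75 RPM in the input. Its log2 fold was 6.13 in each replicate, which is 69.9-fold with both summed (exact 95% interval 29.8 to 216, counting error only). Among all reproducible peaks it ranked 7 by −log10 p (73.2) and 34 by fold. The clusters of both replicates began at the same nucleotide, 56078831, and ended 1 nt apart.

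That one site accounted for a large part of the signal in the window. It held 33.7% of the reads in the window's clusters in replicate 1 (exact 95% interval 30.8 to 36.8) and 32.9% in replicate 2 (29.6 to 36.4). In the input, by contrast, it held 5 of 134 reads in the intervals of replicate 1 (3.73%) and 5 of 91 in those of replicate 2 (5.49%). Clusters below the input, whose reads are not fixed, are left out of all these sums, and each share would be lower with them. Reads that span 2 neighbouring clusters may be counted in both, and no correction was made for this. Fewer or more copies of a stretch of RNA and weaker or stronger binding are told apart only through the input, which here is a number between 1 and 17 at each cluster with fixed reads.

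The second peak of this group, from 56078596 to 56078623 at 6084 nt, was a short one of 28 nt. It held 48 reads in replicate 1 and 24 in replicate 2, the input number being 1, with log2 folds of 5.67 and 5.10 (mean 5.39 ± 0.41, SD, n = 2). The exact 95% interval of its summed fold of 43.9 began at 7.62 and ran to 1756 if the input number stands for 1 read; if it stands for 0, there is no upper limit. Replicate 1 listed a wider cluster here (63 nt, log2 fold 3.97 on 59 reads over 4 in the input). Between both peaks, replicate 1 had a further enriched cluster from 56078663 to 56078688, with 26 reads over 1 and a log2 fold of 4.79. Replicate 2 listed no cluster at that place, so it is not among the reproducible peaks.

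The next group, 6778 to 6848 nt, spanned 71 nt and was listed as 2 abutting peaks. Whether these are a single bound site was not tested. The peak from 56077886 to 56077929 held 58 reads in replicate 1 and 46 in replicate 2, again over 1, and its log2 fold was 5.99 ± 0.06 (SD, n = 2). Its neighbour from 56077859 to 56077885 held 36 and 16 reads over 1, with log2 folds of 5.26 in replicate 1 and 4.51 in replicate 2 (mean 4.89 ± 0.53, SD, n = 2). Replicate 1 was split at 56077895 and replicate 2 at 56077885, so the 10 nt between them fell to different clusters. With both replicates summed, the fold was 63.3 (exact 95% interval from 11.1) for the upstream peak and 31.7 (from 5.44) for the downstream one, each on 1 input read and, as above, with no upper limit if that read is 0.

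The last peak, at 7796 nt, ran from 56076836 to 56076911 and was the widest of the 9 (76 nt). It held 81 reads in replicate 1 and 58 in replicate 2, and its input number of 6 was the highest at any of the peaks. The log2 fold was 3.81 ± 0.04 (SD, n = 2), well below that of the strongest site although it was the second deepest of the 9 in reads. As at the strongest site, clusters of both replicates began at the same nucleotide, 56076911. One listed cluster lay between this peak and the previous group, from 56077373 to 56077390 in replicate 2, and it stood below the input at a log2 fold of -0.33.

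**Figure D2:**
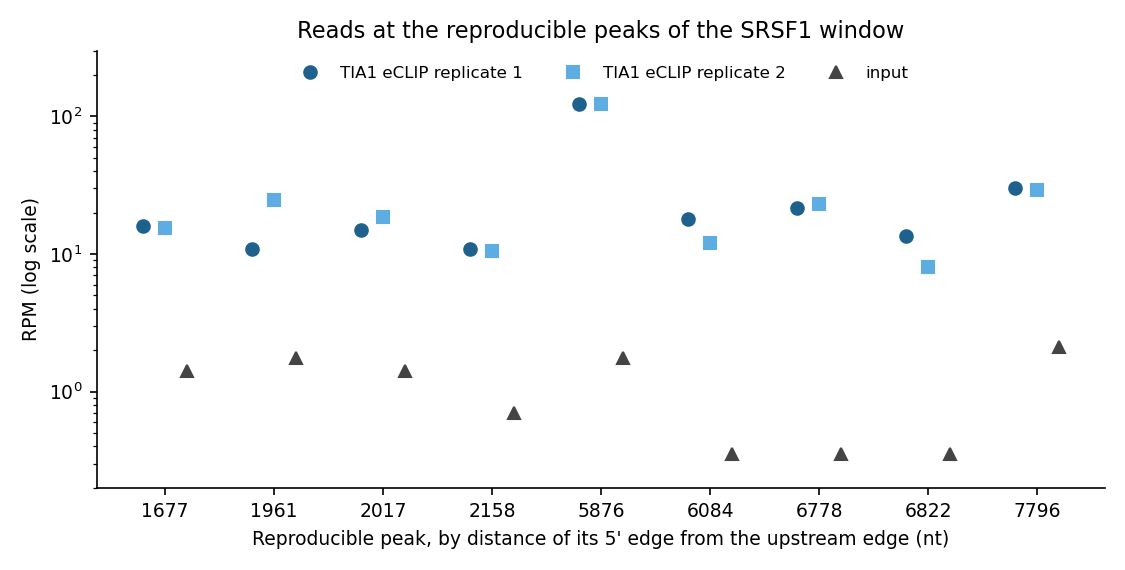
RPM (log axis) at the 9 reproducible peaks of the SRSF1 window in TIA1 eCLIP replicates 1 and 2 and in the input, ordered by the distance of each peak's 5′ edge from the upstream edge; each point is 1 library. The peak at 5876 nt stands at 123 RPM in both replicates, while the other 8 lie between 8.01 and 30.2.

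The upstream group had lower folds than the groups at 5876 and 6778 nt. Its 4 peaks had log2 folds from 3.21 to 3.93, a range that takes in the peak at 7796 nt (3.81), and summed over them the log2 fold was 3.32 in replicate 1 (141 reads) and 3.71 in replicate 2 (138 reads) over 15 in the input. The same sum for the group around 5876 nt was 6.06 in replicate 1 (377 reads) and 5.9997 in replicate 2 (269 reads) over 6 in the input. Groups were formed with these folds known and share 1 input with small numbers, so the gap is given without a test.

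Within the upstream group, the peak at 1677 nt (56082999 to 56083030) held 43 and 31 reads over 4, a log2 fold of 3.49 ± 0.03 (SD, n = 2). The peak at 2017 nt (56082648 to 56082690) held 40 and 37 reads over 4, at 3.57 ± 0.22. The peak at 2158 nt (56082500 to 56082549) held 29 and 21 reads over 2, at 3.93 ± 0.03, and its summed fold of 15.2 had an exact 95% interval that reached up to 129. Replicates differed by at most 0.31 on the log2 scale at these 3 peaks, where the median absolute difference over all reproducible peaks was 0.29.

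The peak at 1961 nt (56082691 to 56082746) had the largest gap between replicates among the 9, at 1.18 on the log2 scale, followed by 0.74 at 6822 nt and 0.57 at 6084 nt. It abuts the peak at 2017 nt, and whether this pair is a single bound site was not tested either. The peak at 1961 nt held 29 reads in replicate 1 and 49 in replicate 2 over 5 in the input. Its log2 folds were 2.62 and 3.81, so replicate 1 alone fell short of 3. Replicate 1 held 37.2% of the reads there (26.5 to 48.9, exact 95% interval), where its part of both library totals was 57.3%. The bounds of this peak are those of the cluster of replicate 2, so both libraries were counted in an interval drawn on replicate 2. The cluster of replicate 1 ran only from 56082710 to 56082741. A two-sided exact binomial test, with Benjamini-Hochberg adjustment over the 2249 reproducible peaks with fixed reads, gave an adjusted p of 0.0317. At the other 8 peaks of the window the adjusted p of the exact test was at least 0.642. Over all reproducible peaks 1.91% passed, so 1 of 9 is too few to set against that background. The test sets 2 libraries of 1 condition against counting error alone, with reads taken as independent, and cannot show how far other libraries would spread.

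**Figure D3:**
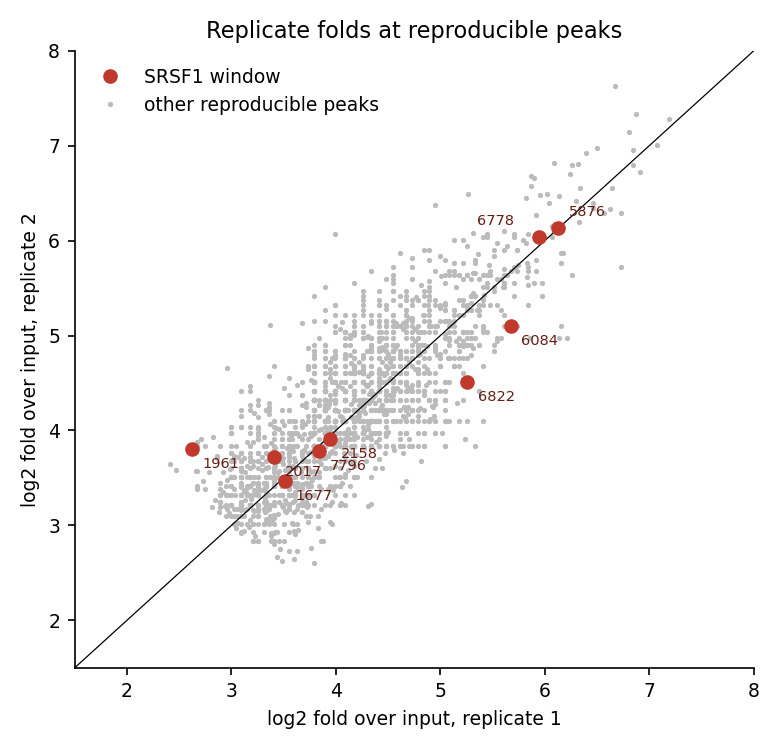
Log2 fold over input in replicate 1 (horizontal) and replicate 2 (vertical) at each reproducible peak, red for the 9 of the SRSF1 window, labelled by distance in nt, and grey for the other reproducible peaks; the line marks equal folds. The peak at 1961 nt lies off the line at 2.62 and 3.81, while the one at 5876 nt lies on it at 6.13.

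Around the upstream group, clusters that missed the limits carried a fair number of reads. The deepest of them, in replicate 1 from 56082416 to 56082499, held 45 reads over 11 in the input (log2 fold 2.12). In replicate 2 the cluster from 56083031 to 56083074 held 39 reads over 7 and stood at 2.99, just outside the limit, where the lowest enriched cluster of replicate 2 in the window stood at 3.03. It overlapped an enriched cluster of replicate 1. Among clusters of replicate 1 with a −log10 p of at least 3, the nearest values were 3.26 inside and 2.29 outside. A cluster of the middle stretch stood at 2.59 but had a −log10 p of 2.94. A cluster from 56083087 to 56083140 held 35 reads over 8 in replicate 1 (2.22), and its counterpart in replicate 2 held 29 over 8 (2.37). Further along, replicate 2 alone listed an enriched cluster from 56082111 to 56082172, with 18 reads over 1 and a log2 fold of 4.68. The most upstream cluster of all, in replicate 1 from 56083232 to 56083254, lay below the input at -0.85, with an input number of at least 21.

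The stretch between the upstream and the strongest group held clusters of both replicates, most of them not enriched. Over the whole lists only 3.09% of clusters in replicate 1 and 5.32% in replicate 2 were enriched. The counts here are too small to set against those shares, so no lack of enrichment is read from them. Replicate 1 listed 12 there, none of them enriched, with log2 folds from -0.56 to 2.59, and replicate 2 listed 8, of which 2 were enriched. One of these, from 56080928 to 56080998, held 40 reads over 7 (log2 fold 3.03); the overlapping cluster of replicate 1 held 17 over 5 (1.85). The other, from 56080804 to 56080850, held 20 reads over 3 (3.25) and met no cluster of replicate 1.

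Some places in this middle stretch had more input than any reproducible peak of the window and almost no fold. From 56081330 to 56081382, replicate 1 held 20 reads over 17 in the input, a log2 fold of 0.32. Near 56081099, replicate 1 held 18 reads over 17 (0.17) and replicate 2 held 13 over 16 (0.21) in its own narrower interval. Near 56079637, both replicates lay below the input, at -0.56 in replicate 1 and -0.36 in replicate 2. In replicate 1 the middle stretch held 14.9% of the window's reads, against 59.6% in the downstream groups and 25.5% around the upstream group. Replicate 2 gave 12.6% in the middle, 52.4% downstream and 35.1% around the upstream group.

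**Figure D4:**
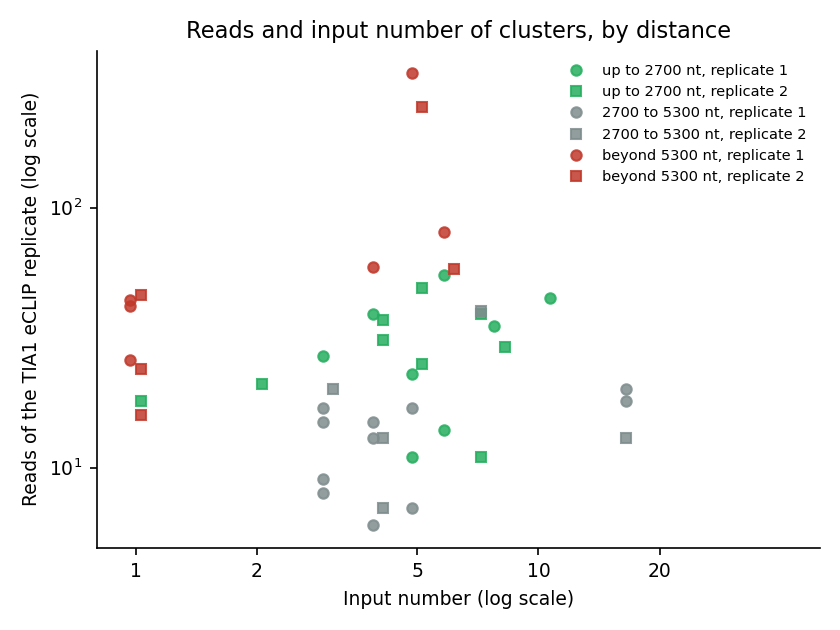
Reads of each cluster in its TIA1 eCLIP replicate against its input number (both log axes), coloured by distance from the upstream edge (green for the upstream group, grey for the middle stretch, red for the downstream groups), with circles for replicate 1 and squares for replicate 2, shifted slightly sideways; clusters below the input are left out. The highest points, 329 and 244 reads, have an input number of 5, while grey points with an input number of 16 or 17 hold 13 to 20 reads.

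The overlap between replicates was counted in both directions. Of the 9 enriched clusters of replicate 1, 8 overlapped an enriched cluster of replicate 2, and 8 of the 12 enriched clusters of replicate 2 overlapped one of replicate 1, which is 88.9% and 66.7%. Over the whole lists 63.4% and 57.1% of enriched clusters did so. Of all clusters of the window, 15 of 27 in replicate 1 (55.6%) and 16 of 23 in replicate 2 (69.6%) met a cluster of the other, against 28.9% and 45.0% over the whole lists. The window was chosen for its reproducible peaks, which raises these shares, and no test was made. Of the 9 reproducible peaks, 8 had an enriched cluster of both replicates at an overlap of at least 1 nt, the exception being the peak at 1961 nt. With an overlap of at least 50% of each interval required, 6 did. For 7 of the 9 peaks the bounds came from replicate 2. Part of this is set by the authors' list, whose peaks pass the same limits.

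Against the reproducible peaks at large, those of SRSF1 had a slightly lower median log2 fold, 3.93 against 4.15 over all of them, and a higher median input number, 4 against 1. An input number of 4 or more was found at 5 of the 9 peaks and at 12.9% of all reproducible peaks with fixed reads. No test was made of these differences, since the window was chosen on these values.

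Other crowded windows give a measure of how the SRSF1 reads were divided. Windows of the same width were started at each reproducible peak and kept if they shared no peak with a fuller one, which gave 1613, of which 1257 (77.9%) held 1 peak. Only 6 held 9 or more, that of SRSF1 among them. In the SRSF1 window the deepest peak held 574 of 1220 peak reads of both replicates (47.0%). This share is of the reads at reproducible peaks only, where the 33.7% and 32.9% above were of the reads in all clusters with fixed reads. In the 4 other windows whose peaks all had fixed reads, that share was 9.56% (chromosome 11, 19 peaks), 24.4% (chromosome 7), 25.1% (chromosome 1) and 19.8% (chromosome 5). It is unknown for the remaining one, also on chromosome 11, because 3 of its 13 peaks stand at the ceiling of the −log10 p and have no reads. The SRSF1 window was chosen with its peaks known, and a share of this kind also depends on the number of peaks, which differs between windows. The difference in shares was not tested. Log2 folds in the SRSF1 window spanned 2.91 from lowest to highest peak, against 2.39 to 2.81 in the other 5. The median input number of 4 in the SRSF1 window was not particular to it. It was 3 and 15 in the windows on chromosome 11 (19 and 13 peaks, the latter over peaks with reads), 4 on chromosome 7, 1 on chromosome 1 and 3 on chromosome 5. Median log2 folds of these 5 ran from 3.83 to 4.42, against 3.93 for SRSF1.

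**Figure D5:**
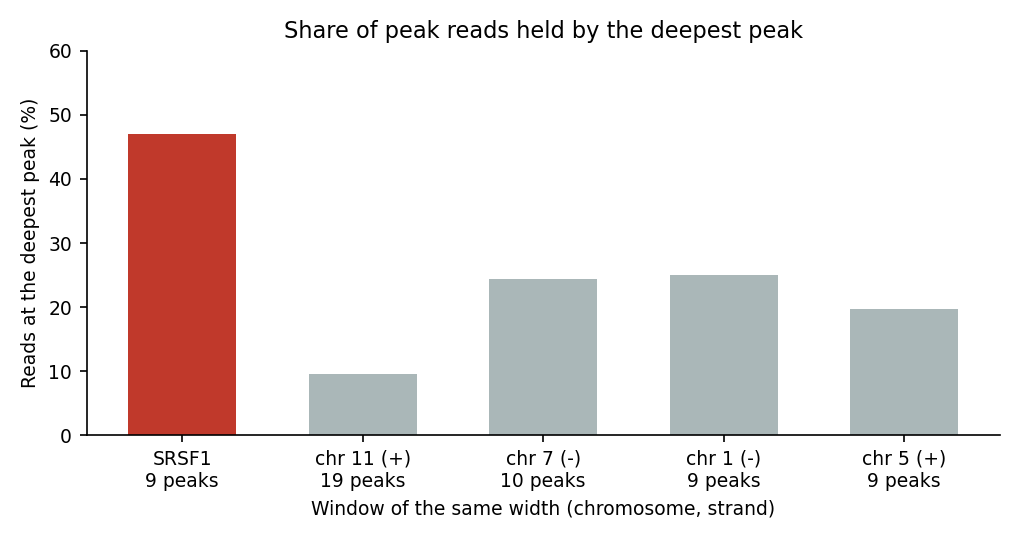
Percent of the reads at reproducible peaks, both replicates summed, that fell in the deepest peak of each window of 8208 nt with at least 9 reproducible peaks; the red bar is SRSF1 and the grey bars are the 4 other windows whose peaks all have reads. SRSF1, chosen with its peaks known, stands at 47.0% and those 4 between 9.56% and 25.1%, with no test made. A further window on chromosome 11, with 3 peaks without reads, is not drawn.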

How the data were processed

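The genome build was hg19, and the tools were STAR 2.4.0i, SAMtools 1.4.1 and cutadapt 1.14 and 1.9.1, per the submitters' processing notes. The program that found clusters is not given in the sources used here. Deposited by the authors were 1 list of clusters per replicate and 1 list of reproducible peaks for both, all without headers. Each holds the authors' −log10 p-value against the input, which stops at 400, and a log2 fold over the input, scaled to library totals; both units were read from the deposited values.

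Reads were recovered from these values with Python 3.11.15 and SciPy 1.17.1. The commonest fold was taken as 3 reads over 1, which gives the ratio of the totals. Of 6 multiples of the smallest whole totals, the one that best returned the −log10 p was kept (Fisher's exact test for numbers under 5, otherwise chi-square with Yates' correction, a form found by matching; relative tolerance 2e-05 plus 5e-06). Over 336 deep clusters the median relative difference was 5.13e-09 at that multiple and at least 5.04e-06 at the others tried. At reproducible peaks, the fold of the replicate that did not supply the bounds was derived from the listed mean. Reads were fixed for 2249 of 2253 peaks (99.8%). Both the recovery and the binomial test were also run on simulated data. Those data were built with the same totals, the same form of test and independent reads, so they cannot check these assumptions. Intervals are exact (Clopper-Pearson) and cover counting error only.

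Sites named are every reproducible peak of the window, enriched clusters outside them, and the deepest other cluster; further clusters were chosen after their values were seen. The window and limits were chosen with earlier results of these data known.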

Additional observations from a re-analysis of the deposited data

How the results depend on the processing

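Of 34 alternative values, 20 leave out a replicate; with 2 replicates the folds among these cannot leave the spread, so they are given as ranges only. Of the other 14, 8 stayed within 1.5 times a count. With limits raised to 4 (log2 fold) and 5 (−log10 p), enriched clusters of the SRSF1 window fell to 4 in replicate 1 and 5 in replicate 2, reproducible peaks with enriched clusters of both replicates to 3, and reproducible peaks in the window to 4; the stricter limits remove clusters by construction. Over the whole lists 0.886% and 1.51% of clusters passed those limits. With the scaled input subtracted, the share of the window's reads at the strongest peak moved from 33.4% to 37.0%; without one replicate it was 32.9% to 33.7%. Joined across 1000 nt, an alternative chosen after seeing the data, the peaks formed 2 groups in place of 4. Leaving out a replicate gave log2 folds of 3.47 to 3.51, 2.62 to 3.81 (below the limit of 3 in replicate 1), 3.41 to 3.72 and 3.91 to 3.95 at the upstream peaks in order of distance. Downstream the ranges were 6.13 to 6.13, 5.10 to 5.67, 5.95 to 6.04, 4.51 to 5.26 and 3.79 to 3.84. Against the share of replicate 1 in all peak reads (56.2%), the peak at 1961 nt had an adjusted p of 0.0464 by the exact test. No paired analysis was possible because the input has no replicate numbers. Depth limits single clusters, where input numbers of 1 leave folds wide.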

Other observations

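Beyond the window, on the same strand of chromosome 17, clusters were also listed downstream. Within 20000 nt downstream, replicate 1 listed 19 clusters and replicate 2 listed 12, with log2 folds of at most 2.67 and 2.84. None was enriched, but the shares over the whole lists (3.09% and 5.32%) would give only 0.587 and 0.639 enriched clusters among so few. Within 20000 nt upstream neither replicate listed a cluster.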
